A study of Mus musculus with 48 samples.

Results

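The compound L67 was tested in G0-G1 arrested wild-type (WT) vAbl cells, with junctions read from the Jκ1 signal end. vAbl lines are mouse pro-B cells transformed by the viral Abl kinase, and STI-571, which inhibits Abl, holds them in G1 and starts RAG1/2 cutting of the Igκ light chain locus. All 6 libraries examined came from WT cells given 3 µM STI-571 for 96 h and carried the bait label JK1SE. They were chosen by genotype, bait and treatment label out of the 48 libraries of the series: 3 had also received 5 µM L67 and 3 the solvent DMSO. The WT line is 1 clone, so the libraries are replicates of treatment and not of the cell line, and nothing in the labels says which of them were grown side by side. Libraries are named below by treatment and a number in the order of deposit, which carries no other meaning.

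RAG1/2 cuts between a coding segment and its recombination signal sequence (RSS), leaving a hairpin coding end (CE) and a blunt signal end (SE). Classical NHEJ, with DNA ligase IV, then joins the 2 coding ends to each other and the 2 signal ends to each other, and NHEJ of signal ends is known for joints that keep every base. L67 is known as an inhibitor of DNA ligases I and III, which serve alternative end joining and other ligation rather than NHEJ. A hybrid joint links a signal end to a coding end. Vκ genes in the deletional orientation leave the signal joint on an excised circle, whereas Vκ genes in the inversional orientation keep it in the chromosome.

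An RSS is a heptamer, a spacer and a nonamer, and joining pairs a signal with a 23-bp spacer with a signal with a 12-bp spacer. The Jκ1 signal is shown because every junction below starts from it, and the Vκ signals because they belong to the 3 most used sites and to sites whose use differed between the groups without overlap. Each is read 5′ to 3′ from the break into the signal on mm9, and the capitals mark heptamer and nonamer. The Jκ1 signal lies at chr6:70672517-70672555 on the minus strand. The Vκ signals lie, in the order printed, at chr6:67560503-67560530 (plus), chr6:68376067-68376094 (plus), chr6:68812231-68812258 (minus), chr6:70321988-70322015 (plus), chr6:69764597-69764624 (minus) and chr6:70654172-70654199 (plus), each directly after the last annotated base of its gene.
Jκ1: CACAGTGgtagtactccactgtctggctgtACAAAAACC
Igkv1-135: CACAGTGattcagacccgaACAAAAACT
Igkv16-104: CACAGTGatacaagtcataACAAAAACC
Igkv1-88: CACAGTGatttataccccaACAAAAACT
Igkv6-17: CACAGTGcttcagcctcctACACAAACC
Igkv12-44: CACAGTGattcaagccatgACATAAACC
Igkv3-1: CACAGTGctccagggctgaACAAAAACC
An exact signal joint sets the 2 heptamers head to head with nothing lost or added. The joint of Jκ1 with the most used site, Igkv1-135, is printed with both heptamers in capitals, bait first.
Jκ1 to Igkv1-135: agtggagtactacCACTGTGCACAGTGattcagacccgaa

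Each library was taken down to 500000 read pairs by the authors and yielded 301603 to 352630 junctions. Copies of a molecule were kept in the lists, which hold 13430 to 19243 distinct combinations of junction, bait end, gap and far prey end. Differences below are for junctions as listed, and where counting each such combination once turned a leading difference, that value is given with it. Such a value rests on the distinct combinations alone, so its direction, and not its size, can be set beside the difference as listed. The bait ended within 20 bp of the break in 99.9% or more of the junctions in every library, as the signal end label requires. In every library the read names had 2 different prefixes, called runs below, which may be lanes of the same sequencing run. In cycling WT cells, V-J efficiency read from the same bait was 4.25, 4.14 and 3.88%, far below every arrested library. DMSO library 1 of the Ku70-/- signal end set, which enters 1 comparison near the end, held 2103 distinct combinations where the other 5 libraries of that set held 22808 to 31112.

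Junctions to the Vκ region were fewer in L67 than in DMSO in all 3 libraries. V-J efficiency, counted as junctions no more than 200 bp from a Vκ break site per 100 read pairs, was 67.6, 65.0 and 64.9% in the DMSO libraries and 63.7, 61.1 and 57.1% in the L67 libraries. The highest L67 value lay below the lowest DMSO value. The means were 65.8 ± 1.52% and 60.6 ± 3.35% (SD, n = 3 each), a difference of -5.20 percentage points (95% interval -11.1 to 0.69). The exact two-sided permutation test gave p = 0.1, the smallest value that 3 against 3 libraries allow, and 0.28 after adjustment over the 14 measures compared. L67 library 3 carried much of the difference, which was -3.42 points without it. Counted as distinct combinations, the difference was 0.005 points in the other direction (exact permutation p = 1.0). Those combinations numbered 13430 to 19243 a library, far fewer than the listed junctions. The size of this value can therefore not be set against the -5.20 points. The assay cannot tell fewer recombined cells from fewer joints per cell. Of the 14 measures, 5 separated the groups without overlap, and their permutation p of 0.1 is the lowest that test can give with 3 libraries a group. The 95% intervals, which rest on the spread within groups, excluded 0 for 4 of these 5, V-J efficiency being the exception.

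**Figure D1:**
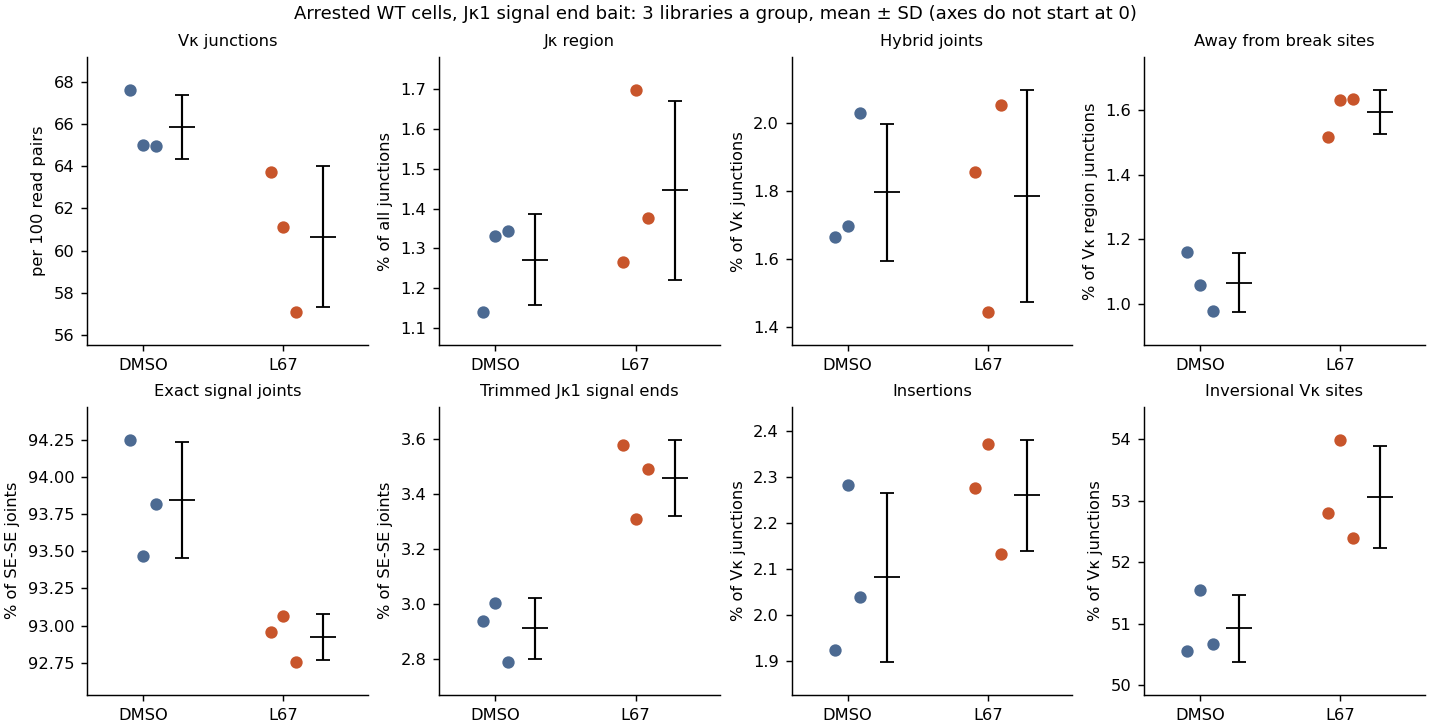
Measures in the 3 DMSO (blue) and 3 L67 (orange) libraries, 1 point a library, with the mean and SD beside them; the y axes give percentages and do not start at 0. Vκ junctions and exact signal joints were lower, and trimmed Jκ1 signal ends, junctions away from break sites and inversional sites higher, in every L67 library, while the Jκ region, hybrid joints and insertions overlapped.

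Signal joints stayed precise in both groups, with a small loss of exact joints in L67. Joints in which both signal ends were complete, with no base lost, shared or added, made up 94.2, 93.5 and 93.8% of SE-SE joints in DMSO. They made up 93.0, 93.1 and 92.8% in L67. The groups did not overlap, and the difference of means was -0.92 percentage points (95% interval -1.59 to -0.25; exact permutation p = 0.1). With distinct combinations counted once it turned, to 0.60 points higher in L67 (exact permutation p = 0.6). Some joints were read as a 1-bp microhomology only because the last base of the Vκ segment equals the last base of the bait, and their sequence is the same as that of an exact joint. With those counted as exact the shares were 95.6, 95.2 and 95.4% in DMSO and 94.6, 94.9 and 94.7% in L67, again without overlap.

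Shortened Jκ1 ends were more frequent in L67 in the listed junctions. Jκ1 signal ends that had lost at least 1 base made up 2.94, 3.00 and 2.79% of SE-SE joints in DMSO and 3.58, 3.31 and 3.49% in L67. All 3 L67 libraries were above all 3 DMSO libraries, by 0.55 points on average (95% interval 0.27 to 0.83; exact permutation p = 0.1), or 1.19-fold. With distinct combinations counted once the difference was -0.09 points (exact permutation p = 1.0). By length, ends shortened by 1 bp did not differ in mean (0.96% in both groups), those shortened by 2 to 4 bp were 1.61 ± 0.145 and 2.04 ± 0.135%, and those shortened by 5 to 20 bp 0.297 ± 0.0615 and 0.434 ± 0.0236% (SD, n = 3; exact permutation p = 0.1 for each of the last 2 classes, which did not overlap). Ends shortened by over 20 bp were rare, at 0.0362 and 0.0268% on average, and overlapped. The length classes are given for junctions as listed only.

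Vκ signal ends were shortened less often. The shares were 1.76, 1.70 and 1.81% in DMSO and 2.12, 1.82 and 2.07% in L67, without overlap (exact permutation p = 0.1). On this side, the class of 5 to 20 bp separated the groups (0.505 ± 0.0242 against 0.634 ± 0.0724%; exact permutation p = 0.1), whereas losses of 1 bp and of 2 to 4 bp overlapped. Joints shortened at both ends made up 0.63, 0.51 and 0.52% in DMSO and 0.77, 0.72 and 0.76% in L67, which was 1.36-fold and without overlap. The shares in this paragraph are for junctions as listed, and no value with distinct combinations counted once is given for them. The median loss from a shortened end was 2 bp on either side in every library. The most common shortened joint lacked 1 bait base and nothing else, at 0.48% of SE-SE joints in DMSO and 0.51% in L67. The next lacked 2 bait bases and nothing else, at 0.33 and 0.47%.

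The share of junctions within 10 bp of the Vκ break, out of those within 100 bp, was close to complete. It was 99.6, 99.8 and 99.7% in DMSO and 99.6, 99.7 and 99.5% in L67 (exact permutation p = 0.4). The values overlapped. Across the 114 sites with at least 50 SE-SE joints on average, the exact share (shared end bases included) was lower in the L67 mean at 64 sites and higher at 50, and all L67 libraries were below all DMSO libraries at 8 sites (7.02%) and above at 5. At the 73 sites with at least 1000 SE-SE joints, the DMSO means ran from 86.4 to 98.5% and the median difference was -0.41 percentage points, lower at 45 sites.

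Insertions were short, and their share overlapped between the groups. Among Vκ junctions, 1.92, 2.28 and 2.04% carried an insertion in DMSO and 2.28, 2.37 and 2.13% in L67 (difference of means 0.18 points, 95% interval -0.17 to 0.53; exact permutation p = 0.3), and with distinct combinations counted once the difference was -1.76 points (exact permutation p = 0.3). The last value is a difference in shares of the distinct combinations, so its size cannot be set beside the 0.18 points. As listed, the difference was 0.10 points without DMSO library 1 and 0.28 without DMSO library 2. Insertions of 1 bp were 1.24 ± 0.160 and 1.32 ± 0.0813%, of 3 bp 0.171 ± 0.0131 and 0.208 ± 0.0419%, and of 4 bp 0.107 ± 0.00505 and 0.103 ± 0.0307% (SD, n = 3). Only the 2-bp class among lengths of 1 to 5 bp failed to overlap, at 0.52, 0.53 and 0.49% in DMSO and 0.62, 0.54 and 0.56% in L67 (exact permutation p = 0.1). The mean length was 1.76 ± 0.0471 bp in DMSO and 1.80 ± 0.0487 bp in L67 (exact permutation p = 0.6).

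The inserted bases, as read, were more often A or T than G or C, above all in insertions of 1 base. How insertions are read limits this. The Jκ1 signal end closes with G and the Vκ signal opens with C. An added base equal to a lost one there reads as an exact joint and is not counted. An added base equal to the last base of the Vκ segment is read as prey. Few G and C can therefore not be read as a preference in the bases added. Over all inserted bases of SE-SE joints, G and C made up 41.1, 35.1 and 36.7% in DMSO and 40.8, 43.2 and 40.6% in L67. In SE-SE joints with 1 inserted base, A made up 42.2 to 51.4% in DMSO and 40.3 to 52.1% in L67, T 36.3 to 42.7% and 35.96 to 44.0%, and C and G the rest. Many of these joints kept the length of an exact joint, with as many bases missing from the ends as were inserted. Such joints were 56.3, 50.1 and 51.0% of SE-SE insertions in DMSO and 47.6, 42.9 and 49.4% in L67. As a share of SE-SE joints they overlapped, at 0.925, 1.08 and 0.910% in DMSO and 0.967, 0.895 and 0.915% in L67 (exact permutation p = 0.6). Leaving them out, trimmed Jκ1 ends were 2.35, 2.28 and 2.21% in DMSO and 2.97, 2.76 and 2.96% in L67, 1.27-fold and without overlap. Trimmed Vκ ends then overlapped, at 1.45, 1.38 and 1.503% in DMSO and 1.80, 1.49 and 1.72% in L67 (exact permutation p = 0.2). Both trimmed shares are given for junctions as listed only.

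Microhomology, as read from the overlap of bait and prey, was rare at these joints. Most overlaps were of 1 bp, a class that at SE-SE joints held mainly complete joints. The 1-bp class was 2.19, 2.73 and 2.76% of Vκ junctions in DMSO and 2.72, 2.65 and 3.06% in L67 (exact permutation p = 0.6). Among SE-SE joints alone it did not overlap, at 1.69, 2.03 and 1.99% in DMSO and 2.16, 2.13 and 2.38% in L67 (exact permutation p = 0.1). Most of this class were complete joints whose sequence is that of an exact joint. They were 1.56% of SE-SE joints in DMSO and 1.82% in L67 on average, where the whole class was 1.90 and 2.23%. The separation can therefore not be read as a difference in microhomology. Overlaps longer than 1 bp were 0.35 and 0.45% of SE-SE joints on average, and the groups overlapped. Among all Vκ junctions, overlaps longer than 1 bp were 0.75, 0.74 and 0.64% in DMSO and 0.82, 0.61 and 1.03% in L67 (exact permutation p = 0.5). L67 library 3 was highest and L67 library 2 lowest, so the L67 spread covered the DMSO values. By length, 2 bp was 0.341 ± 0.0467 and 0.369 ± 0.0705%, 3 bp 0.0826 ± 0.0494 and 0.127 ± 0.0154%, and 4 bp 0.0951 ± 0.0344 and 0.103 ± 0.0453% (SD, n = 3), all overlapping. Direct joints made up 95.1, 94.2 and 94.6% in DMSO and 94.2, 94.4 and 93.8% in L67 (exact permutation p = 0.2), a difference of -0.54 points that turned to 1.22 points with distinct combinations counted once (exact permutation p = 0.3) and was -0.29 points as listed without DMSO library 1. Among SE-SE joints alone they made up 96.3, 95.41 and 96.0% in DMSO and 95.36, 95.39 and 95.3% in L67, without overlap (exact permutation p = 0.1). These direct joints leave out complete joints read with 1 shared base, which were 1.56% of SE-SE joints in DMSO and 1.82% in L67 on average. Direct shares with those joints included were not compared.

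**Figure D2:**
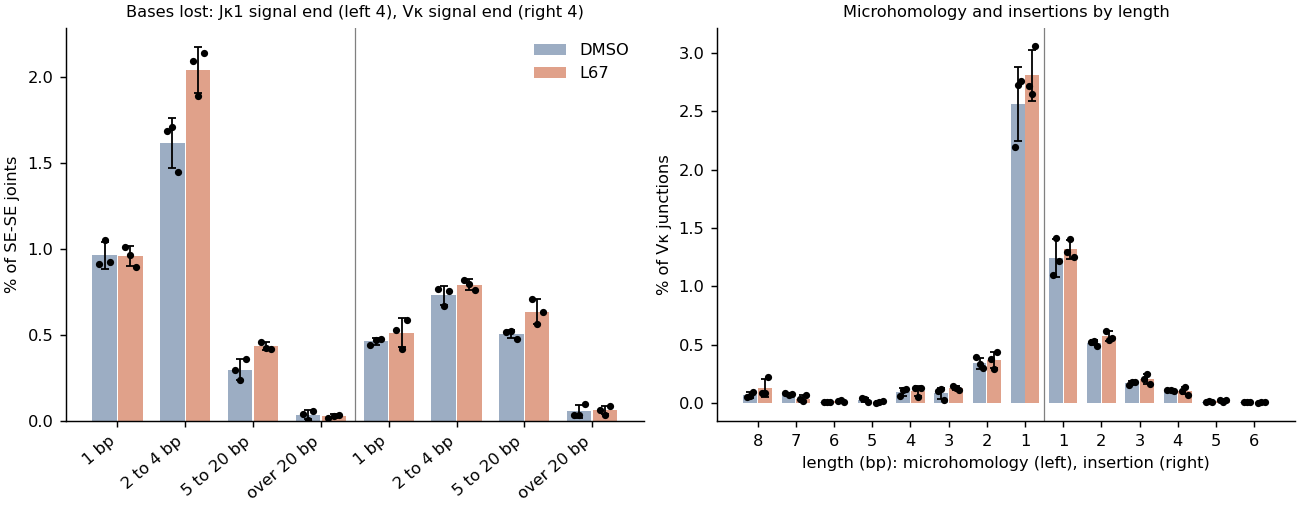
Left, share of SE-SE joints (%) by bases lost from the Jκ1 signal end and from the Vκ signal end; right, share of Vκ junctions (%) by length of microhomology and insertion. Bars are means of 3 libraries with SD and 1 point a library; the 2 to 4 bp and 5 to 20 bp classes of the Jκ1 end stood higher in every L67 library, while 1-bp microhomology overlapped.

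Hybrid joints, which link the Jκ1 signal end to a Vκ coding end, were rare in both groups. They made up 1.67, 1.70 and 2.03% of Vκ junctions in DMSO and 1.86, 1.44 and 2.05% in L67 (difference of means -0.01 points, 95% interval -0.61 to 0.58; exact permutation p = 1.0). They fell on 73 to 99 of the 140 sites in a DMSO library and on 76 to 87 in an L67 library, and a single site held 7.29 to 18.7% of a library's hybrids. Igkv13-84 gave 385, 694 and 1230 hybrids in DMSO and 748, 142 and 732 in L67, and Igkv9-124 gave 427, 601 and 568 in DMSO and 438, 145 and 262 in L67. The L67 counts at Igkv13-84 ran from 142 to 748, so single libraries weighed on them. Hybrids were told by prey strand alone. A site at 68876650 with no annotated gene, a pileup of 66 junctions and the heptamer CACTATG gave 142, 156 and 311 hybrids in DMSO and 404, 214 and 291 in L67. That these end at a Vκ coding end is not shown.

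Hybrids were built unlike signal joints in every library. Direct joints made up 26.8 to 27.6% of hybrids in DMSO and 23.3 to 31.8% in L67, against 95.4 to 96.3% and 95.3 to 95.4% of SE-SE joints. The largest class of hybrids was microhomology of 1 bp, at 38.3 ± 5.91% in DMSO and 35.1 ± 2.72% in L67 (SD, n = 3). Microhomology over 1 bp was found in 20.2 ± 2.19% of hybrids in DMSO and 20.5 ± 5.39% in L67, and an insertion in 14.3 ± 4.24 and 17.6 ± 3.73% (SD, n = 3). The Jκ1 signal end was shortened in 71.2 ± 6.95% of hybrids in DMSO and 74.3 ± 6.42% in L67 (exact permutation p = 0.5). None of these hybrid shares separated the groups.

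The 140 Vκ break sites, each a pileup with CAC as its next bases, lay from chr6:67506211 to chr6:70654172 on mm9. The Vκ region was bounded by the outermost of the 99 annotated Vκ genes, chr6:67505630-70654171, so that the last site, that of Igkv3-1, starts 1 base past it and is counted with the sites but not in totals of the region. Of them 93 followed an annotated gene, 112 had the consensus heptamer, 64 were deletional and 76 inversional. Use of a site is given as junctions per 1000 Vκ junctions of the library, SE-SE and hybrid joints together. With limma on the 115 sites with at least 50 junctions on average, which held 99.9% of Vκ junctions, 0 sites (0.0%) passed an adjusted p of 0.05, and 14 had an unadjusted p below 0.05 (5 higher and 9 lower in L67). The lowest adjusted p was 0.11. The log2 difference was within 0.5 at 97 of the 115 sites, and its median was 0.03. The 3 libraries of L67 lay entirely above or below those of DMSO at 22 sites (19.1%), 12 higher (10.4%) and 10 lower (8.7%).

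The 10 most used sites held 34.5% of Vκ junctions in DMSO and 33.0% in L67. Igkv1-135 stood first with 56.4, 52.0 and 63.7 junctions per 1000 in DMSO and 55.9, 48.2 and 51.2 in L67, which overlapped. Igkv16-104 followed (45.7, 39.4 and 41.1 against 45.3, 41.4 and 44.1) and then Igkv1-88 (46.8, 45.1 and 38.05 against 36.9, 43.2 and 33.8), both also overlapping. Igkv8-16, Igkv1-117, Igkv12-46 and Igkv3-2, the other frequent sites with overlap, had log2 differences from -0.21 to -0.01.

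The remaining 3 of the 10 did not overlap. Igkv6-17 was used at 33.996, 34.99 and 33.1 per 1000 in DMSO and 24.99, 29.001 and 26.5 in L67, a log2 difference of -0.34 ± 0.11 (SE; limma adjusted p = 0.25). Igkv12-44 was used at 28.4, 26.35 and 26.6 per 1000 in DMSO and 30.8, 30.7 and 31.5 in L67 (log2 0.19 ± 0.09; limma adjusted p = 0.40). Igkv3-10 was used at 30.1, 29.97 and 29.2 per 1000 in DMSO and 35.02, 31.2 and 34.2 in L67 (log2 0.17 ± 0.10; limma adjusted p = 0.51). The first was lower and the other two higher in every L67 library, and none passed the adjusted threshold.

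At the Jκ-proximal end, Igkv3-1, the Vκ gene nearest to Jκ1, was used at 7.93, 6.58 and 7.32 per 1000 in DMSO and 5.25, 5.71 and 5.59 in L67 (log2 -0.40 ± 0.11; limma adjusted p = 0.25). Igkv3-3 was used at 1.65, 2.38 and 2.34 per 1000 in DMSO and 1.63, 1.22 and 1.39 in L67 (log2 -0.57 ± 0.19; limma adjusted p = 0.25). Both were lower in every L67 library, while Igkv3-2, Igkv3-4 and Igkv3-7 overlapped at log2 differences of -0.01, -0.04 and -0.22. Gm16774, which lies between Igkv3-7 and Igkv3-4 and was named after its values were seen, was used at 7.20, 6.55 and 6.49 per 1000 in DMSO and 5.57, 4.82 and 5.06 in L67, also without overlap (log2 -0.39; limma adjusted p = 0.25). Igkv2-137, at the distal end, was a rare site at 0.28, 0.28 and 0.54 per 1000 in DMSO and 0.61, 1.01 and 0.62 in L67 (log2 1.06 ± 0.34; limma adjusted p = 0.25).

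The largest differences by fold were at rarely used sites. The 3 highest were a site with no annotated gene at position 67518928 (log2 1.33), Igkv2-137 and a site at 69193153 (0.86); the 3 lowest were Igkv8-28 (-1.498), a site at 67797869 (-0.75) and Igkv9-124 (-0.72). Of these 6 only Igkv2-137 and Igkv9-124 did not overlap, the latter at 3.11, 3.66 and 3.21 per 1000 in DMSO and 2.70, 1.38 and 2.20 in L67. Use includes hybrids. At Igkv9-124 they were 427, 601 and 568 of 1052, 1189 and 1042 junctions in DMSO and 438, 145 and 262 of 861, 422 and 627 in L67. Whether SE-SE joints alone separate the groups at either site is not given here. Single libraries moved the log2 differences widely. Leaving out 1 at a time gave 0.64 (without DMSO library 2) to 2.10 (without DMSO library 1) at 67518928 and 0.24 (without DMSO library 3) to 1.30 (without DMSO library 1) at 69193153. It gave -2.22 (without DMSO library 3) to -0.39 (without L67 library 3) at Igkv8-28, where the site still passed the minimum. It gave -1.14 (without L67 library 1) to -0.44 (without L67 library 2) at 67797869, and -0.44 at Igkv9-124 without L67 library 2. The minimum was applied to the mean over both groups together, so a site rare in 1 group could still be tested. Position 67518928 had 102, 12 and 30 junctions in DMSO and 83, 70 and 86 in L67. Igkv8-28 had 132, 75 and 21 in DMSO and 112, 16 and 3 in L67. The ranking by fold can favour sites so close to the minimum. The sites with the lowest p, picked after their values were seen, were a site at 69060897 (6.96, 8.13 and 7.61 per 1000 against 10.95, 13.9 and 12.6; log2 0.72 ± 0.13, limma adjusted p = 0.11) and Igkv4-86 (3.19, 3.49 and 3.22 against 4.98, 4.80 and 5.93; log2 0.66 ± 0.12, limma adjusted p = 0.11). These 2 were called higher by limma when distinct combinations were counted once, and the first also when the L82-G17 libraries entered the fit.

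**Figure D3:**
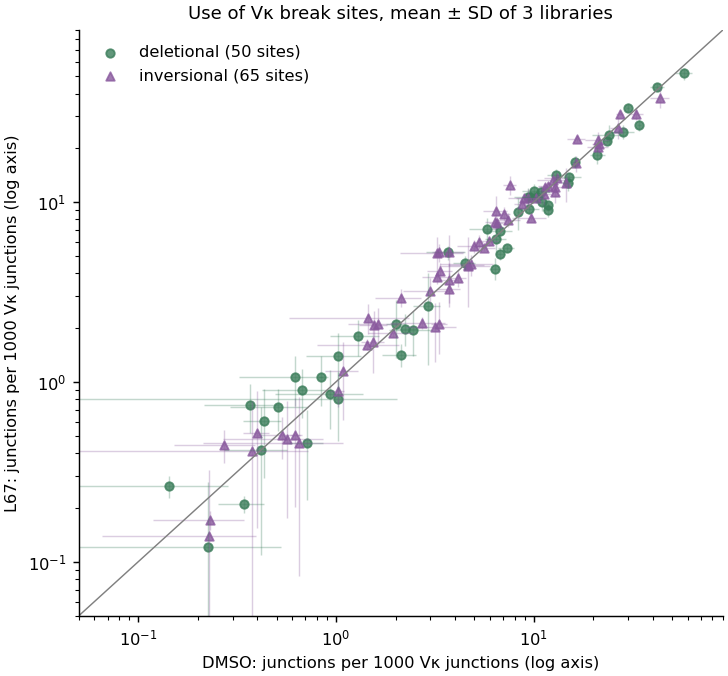
Mean use of the 115 tested Vκ break sites in DMSO (x axis) and L67 (y axis), both as junctions per 1000 Vκ junctions on log axes, with SD of 3 libraries; circles are deletional and triangles inversional sites, and the line marks equal use. The most used site, Igkv1-135, stood at 57.3 in DMSO and 51.8 in L67, and the log2 difference was within 0.5 at 97 sites.

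Several sites share the same signal letters and still differed in use. Of the 140 sites, 57 fell into 14 groups with identical first 28 bases (heptamer, spacer and nonamer). The printed Igkv3-1 signal was also that of Igkv3-12, Igkv3-10, Igkv3-7, Gm16774, Igkv3-4, Igkv3-3 and Igkv3-2, whose mean use ran from 1.77 (Igkv3-3) to 31.6 per 1000 (Igkv3-10) over the 6 libraries. In that group 4 of 8 sites were lower in every L67 library and 1 was higher, where 8.7% of all 115 tested sites were lower and 10.4% higher. The Igkv6-17 signal was shared by 8 sites, from Igkv8-28 at 0.18 to Igkv8-16 at 31.8 per 1000, of which Igkv6-17 alone was lower in every L67 library and none higher. Igkv3-1 and Igkv6-17 were printed for their lack of overlap and are among the sites counted, so both counts are descriptions only. The largest group, 13 sites of mostly Igkv4 genes, is shown because it held both sites with the lowest p.
Igkv4-86 and the site at 69060897: CACAGTGatacagactggaACAAAAACC
In this group 4 of 13 sites were higher in every L67 library and none was lower (10.4 and 8.7% over all tested sites), with log2 differences from -0.18 to 0.86 per site. The 4 include the 2 sites for which the group is shown, so the count is a description only. The prey alignment starts in these shared letters, so reads of closely alike family members rest on the sequence beyond them.

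The Vκ region was cut into 4 stretches of equal length, numbered from the distal end, and L67 libraries held relatively fewer junctions in stretch 4, next to Jκ1. It took 29.95, 31.3 and 29.7% of Vκ junctions in DMSO and 28.99, 28.5 and 27.3% in L67 (difference of means -2.02 points, 95% interval -3.99 to -0.05; exact permutation p = 0.1), and the difference was -1.83 points with distinct combinations counted once. Stretch 3 took 23.3, 22.8 and 23.8% in DMSO and 24.9, 24.9 and 25.2% in L67, and stretch 2 took 23.6, 22.9 and 22.6% and 23.9, 24.6 and 24.3%. Neither overlapped, while stretch 1 did (23.1, 23.0 and 24.0 against 22.2, 21.9 and 23.2%). Of 33 tested sites in stretch 4, 7 were lower and 2 higher in every L67 library, and of 55 tested sites in stretches 2 and 3, 2 were lower and 8 higher, beside 8.7% lower and 10.4% higher over all 115.

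The share of sites in inversional orientation was higher in L67. Inversional sites took 50.6, 51.5 and 50.7% of Vκ junctions in DMSO and 52.8, 54.0 and 52.4% in L67 (difference of means 2.13 points, 95% interval 0.55 to 3.72; exact permutation p = 0.1). All 3 L67 libraries were higher. Of 65 tested inversional sites 9 were higher and 1 lower in every L67 library, and of 50 deletional sites 3 were higher and 9 lower, beside 10.4% higher and 8.7% lower over all 115. With distinct combinations counted once the difference was 1.22 points. Position and orientation of a site were not separated in these comparisons.

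**Figure D4:**
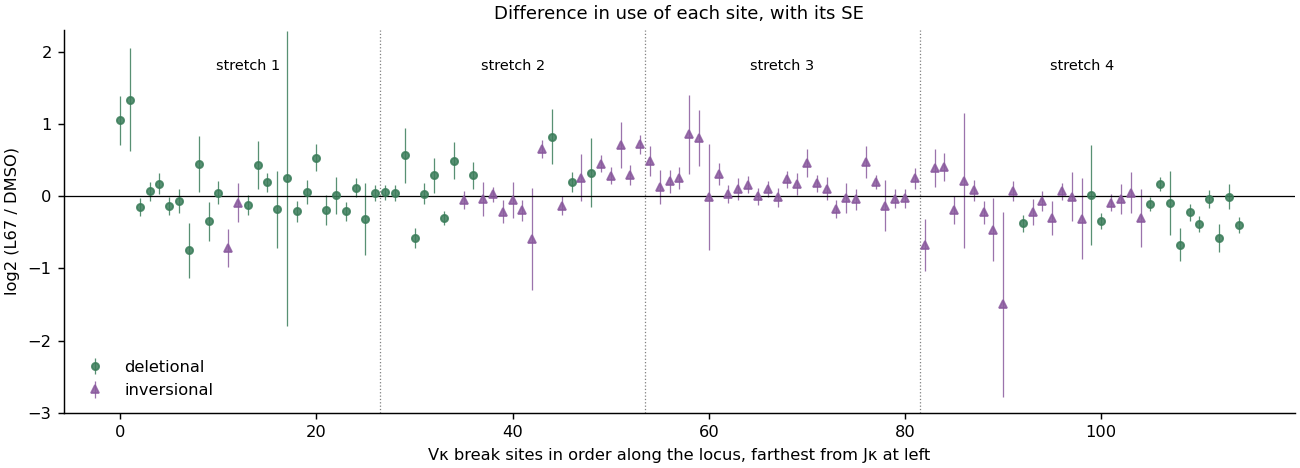
Log2 difference in use (L67 over DMSO, y axis) of each of the 115 tested sites with its limma SE, in order along the locus with the site nearest Jκ at the right; circles are deletional, triangles inversional, and dotted lines bound the 4 stretches of the Vκ region. The median over sites was 0.14 in stretch 3 and -0.10 in stretch 4.

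The junctions from the coding end of the same Jκ1 break, in WT cells with the same treatments, were read in separate libraries. V-J efficiency read from the coding end was 72.4, 69.0 and 69.2% in DMSO and 66.7, 65.0 and 67.4% in L67, a difference of -3.81 points, and that difference and the one at the signal end differed by -1.39 points (exact permutation within bait, p = 0.735). Without single libraries the -1.39 points became -2.93 to 0.39. Stretch 4 took 31.6, 32.1 and 31.9% in DMSO and 29.6, 29.2 and 28.3% in L67 from the coding end, also without overlap, and the difference between the baits in this effect was 0.82 points (exact permutation p = 0.655, adjusted 0.705; 0.46 to 1.32 points without single libraries). That difference between the baits changed sign with distinct junctions counted once. The inversional share was 59.7, 59.2 and 58.0% against 59.3, 59.3 and 59.7%, which overlapped, and the effects differed by 1.63 points (exact permutation p = 0.205, adjusted 0.41). These last 2 belong to 6 comparisons with the coding end bait that were chosen after seeing the data, of which the lowest adjusted p was 0.09. In the 12 comparisons planned of the L67 effect with the coding end bait or with Ku70-/- cells, which include V-J efficiency, the lowest adjusted p was 0.27.

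Ku70 is part of the Ku heterodimer, which binds broken ends first in NHEJ. In Ku70-/- cells given the same STI-571 treatment, V-J efficiency read from the signal end was 28.4, 28.5 and 29.7% in DMSO and 30.3, 29.5 and 27.8% in L67, which overlapped. The effects of L67 in the 2 genotypes differed (WT minus Ku70-/-) by -5.56 points (exact permutation within genotype, p = 0.05, adjusted 0.27; the smallest p possible is 0.005). The hybrid share in Ku70-/- cells was 47.7, 47.4 and 47.9% in DMSO and 52.5, 52.4 and 50.3% in L67, and the effects differed by -4.06 points (exact permutation p = 0.05, adjusted 0.27). Leaving out single libraries moved both to either side of 0.05. Without the DMSO library that stood apart, the 2 differences were -5.32 points (exact permutation p = 0.08) and -4.06 points (exact permutation p = 0.07).

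Junctions in the Vκ region but away from every break site were more frequent in L67. There were 3937, 3455 and 3180 in DMSO and 4882, 5046 and 4713 in L67, or 1.16, 1.06 and 0.98% against 1.52, 1.63 and 1.63% of the junctions of the region. The lowest L67 count was above the highest DMSO count (1.38-fold; exact permutation p = 0.1). Counted once with the far prey end in the key, they numbered 509, 275 and 279 in DMSO and 511, 338 and 537 in L67, which overlapped. From the coding end bait the counts were 352, 304 and 283 in DMSO and 357, 307 and 377 in L67, and the difference between the baits in the effect gave an exact permutation p of 0.095.

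The largest pileup among them lay at chr6:68387596 (plus strand) inside the annotated Igkv15-103 gene, a position picked after the values were seen. It held 1750, 1659 and 1181 junctions within 20 bp in DMSO and 1782, 1841 and 1935 in L67, without overlap. Counted once with the far prey end in the key there were 197, 99 and 99 in DMSO and 171, 122 and 200 in L67, which overlapped (exact permutation p = 0.5). Of them, 19.9 to 40.7% ended at the position itself, so the junctions spread over neighbouring bases. The 30 bases at chr6:68387582-68387611 on the plus strand are shown with, in capitals, the reverse complement of a CACATTG heptamer just before the junctions.
Pileup in Igkv15-103: tggttaaCAATGTGtatttgttgtatgttt

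The Jκ region, within 2000 bp of the bait break, took 1.14, 1.33 and 1.34% of all junctions in DMSO and 1.27, 1.70 and 1.38% in L67 (difference of means 0.17 points, 95% interval -0.23 to 0.58; exact permutation p = 0.4). The difference was 0.05 points without L67 library 2, 0.11 without DMSO library 1 and 0.26 without L67 library 1. Of its 4022 to 5495 junctions a library, 3895 to 5121 had the prey on the plus strand, the direction of a Jκ coding end. At the Jκ5 coding end there were 1810, 1932 and 2335 junctions in DMSO and 1845, 2509 and 1809 in L67. At the Jκ4 coding end there were 1130, 1403 and 1311 against 1300, 1525 and 1012, and at Jκ1 itself, where the 2 ends of the same break meet again, 889, 661 and 631 against 730, 1001 and 901. Each overlapped. Jκ2 took 0 to 77 junctions a library, and Jκ3, whose signal is known to be poor, 0 or 1. Exact rejoining of the break restores the germline sequence and is not counted by this assay.

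Farther downstream on chromosome 6, which held 3749 to 5026 junctions a library, 2 positions held most of them. They were picked after the values were seen, and the annotation used names no gene at them. The first lay at chr6:70675007 on the plus strand, in the interval between Jκ5 and Igkc, 1422 bases before Igkc, where a CACAGTG heptamer starts at the next base. Joining the Jκ1 signal end there deletes 2451 bases, which hold all Jκ segments. It took 858, 883 and 923 junctions within 20 bp in DMSO and 1122, 1352 and 1385 in L67, a 1.45-fold difference without overlap (exact permutation p = 0.1), and 77.1 to 95.1% of them ended at 1 position. Counted once with the far prey end in the key, there were 109, 69 and 63 in DMSO and 88, 89 and 122 in L67, which overlapped.

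The second lay at chr6:70701777 on the plus strand, 25.0 kb past Igkc, 2 bases past a heptamer on the opposite strand. The Igκ locus is known to carry a recombining sequence downstream of Cκ, by which B cells delete Cκ. This position took 2263, 2098 and 2564 junctions in DMSO and 1891, 2623 and 1765 in L67 (exact permutation p = 0.6), and 12.1 to 33.6% of them ended at 1 base. That is a smaller part than at the heptamer between Jκ5 and Igkc. The plus strand of both, at chr6:70674993-70675022 and chr6:70701763-70701792, is shown with the heptamer in capitals.
Between Jκ5 and Igkc: accactttcctgaggCACAGTGataggaac
Downstream of Igkc: gcactCACTGTGaggaccctagtggcagcc

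**Figure D5:**
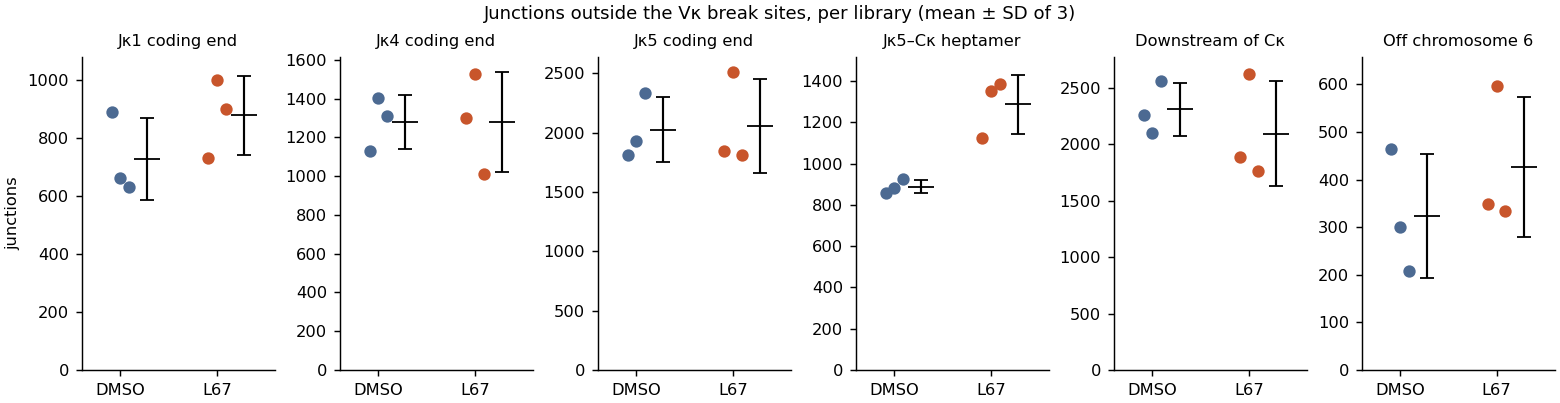
Number of junctions per library (y axes, from 0) at the coding ends of Jκ1, Jκ4 and Jκ5, at the heptamer between Jκ5 and Cκ, at the position downstream of Cκ, and on other chromosomes, for 3 DMSO (blue) and 3 L67 (orange) libraries with mean and SD. The heptamer between Jκ5 and Cκ alone separated the groups (888 against 1286 on average).

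Junctions to other chromosomes were few. There were 464, 300 and 207 in DMSO and 349, 597 and 334 in L67, and the means of their log2 values differed by 0.42 (95% interval -0.77 to 1.62; exact permutation p = 0.4). That difference was 0.72 without DMSO library 1, 0.14 without DMSO library 3 and 0.16 without L67 library 2. As distinct junctions they numbered 47, 47 and 40 in DMSO and 54, 50 and 68 in L67, all 3 L67 libraries above all 3 DMSO libraries (exact permutation p = 0.1). Of the 250 positions found over the 6 libraries, 229 occurred in 1 library only. Single positions with many copies weighed on the counts: 1 position on chromosome 11 gave 168 of the 597 junctions of L67 library 2, and none elsewhere.

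Other antigen receptor loci, which RAG1/2 also cuts, took a part of the listed junctions to other chromosomes that differed widely between libraries. Igh, Igl, Tcra/Tcrd and Tcrg together held 304, 107 and 37 junctions in DMSO and 204, 290 and 155 in L67 (exact permutation p = 0.5). In every library but DMSO library 2, most of these lay in Tcra/Tcrd (269, 52 and 27 against 203, 286 and 124). Some lay in Igh (0 to 55 a library), few in Igl (0 to 4), and none in Tcrg. Single positions weighed on Tcra/Tcrd. Position 54174233 of chromosome 14 gave 134 of the 269 in DMSO library 1, and 54269665 gave 154 of the 286 in L67 library 2. Outside the receptor loci there were 160, 193 and 170 junctions in DMSO and 145, 307 and 179 in L67. As distinct junctions, most lay outside these loci in every library. They were 24, 40 and 29 of 47, 47 and 40 in DMSO, and 34, 35 and 49 of 54, 50 and 68 in L67.

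The compound L82-G17, known as an inhibitor of DNA ligase I, was given to the same arrested WT cells at 25 µM, a dose that differs from the 5 µM of L67, so its values are set beside the others without a comparison. Read from the signal end, V-J efficiency was 27.4, 24.3 and 24.9% in its 3 libraries. Exact signal joints made up 94.7, 94.4 and 94.2% of SE-SE joints and trimmed Jκ1 ends 2.68, 2.72 and 3.04%. Hybrid joints were 1.13, 1.44 and 1.13%, insertions 1.47, 1.79 and 1.82%, and inversional sites 54.4, 55.3 and 54.2% of Vκ junctions. The Jκ region took 1.39, 1.66 and 1.601% of all junctions, and 252, 172 and 277 junctions lay on other chromosomes.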

How the data were processed

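The deposited lists hold 1 junction per line, with prey position and strand, bait end and the alignment bounds on the read, and no count or score was taken from the authors. Per the methods and labels, the authors sampled each library to 500000 read pairs, mapped it to mm9 (Bowtie2 is named in the processing notes) and kept duplicates, so copies of 1 molecule count more than once. Members and lists were chosen with earlier results of these data known. Named sites were the 10 most used, the 3 largest differences each way and the ends of the Vκ region.

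Genes came from GENCODE vM1 on NCBIM37, the assembly of mm9. A break site was the highest position among those up to 50 bp away, with 30 junctions or more and CAC as the next bases (a shift of 1 base allowed), in the 9 arrested WT signal end libraries. Junctions within 200 bp belonged to a site, and prey strand told signal from coding ends. Overlap of bait and prey on the read was microhomology and a gap insertion, up to 20 bp. Percentages were computed here. Library means were compared with an exact two-sided permutation test, and intervals use the spread of 3 and 3 libraries. Site use (log2 of junctions per 1000, the value of 1 junction added) was fitted with limma 3.58.1 in R 4.3.3. The fit was also run on simulated data whose changes were larger than most differences seen here. That run cannot tell whether differences of the size seen would be called. The methods' analysis of variance was not used, which was a choice made here and not one that groups of 3 require. A permutation p is the share of regroupings of these libraries whose difference is at least as large as the one seen. No p-value here reaches beyond these libraries and the clones they came from. Duplicates, runs, windows, site sets and single libraries were varied.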

Additional observations from a re-analysis of the deposited data

Results flagged for a closer look

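One result differed between baits before adjustment. Stretch 1 of the Vκ region, the most distal, took 23.1, 23.0 and 24.0% of Vκ junctions in DMSO and 22.2, 21.9 and 23.2% in L67 from the signal end, and 18.8, 19.1 and 19.6% against 20.1, 20.0 and 20.2% from the coding end. The L67 effects differed by -1.87 percentage points (exact permutation of treatment within bait, p = 0.015, adjusted 0.09 over the 6 comparisons of this kind, which were chosen after seeing the data). With each distinct junction counted once the difference was -0.54 points (exact permutation p = 0.525).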

How the results depend on the processing

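All differences here are L67 minus DMSO. The way copies are counted changed directions most. With each distinct junction (without, then with, the far prey end in the key) counted once, the difference in V-J efficiency was 0.015 and 0.0047 points, in insertions -1.91 and -1.76 points and in direct joints 0.71 and 1.22 points, and the mean insertion length differed by -0.053 bp under the first. With the far end in the key, hybrid joints differed by 0.029, exact signal joints by 0.60 and trimmed Jκ1 ends by -0.091 points, and use of Igkv3-4 by 0.092 on the log2 scale. Hybrid joints differed by 0.04 points in the smaller run and by 0.43 points when told apart by side of the break, and use of Igkv3-2 by 0.00084 (log2) in the larger run. The cause was not tested.

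The limma count of sites was 0, but 1 in the fit with the L82-G17 libraries, 2 with distinct junctions and far end, and 1 in the smaller run (the site at 68425096, lower). Leaving out single libraries gave 0 sites each time.

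For differences of effects against the coding end bait, distinct junctions gave -0.026 points for the share within 10 bp (far end), 0.14 and 0.11 (log2) for junctions on other chromosomes, -0.54 points for stretch 1, -0.39 for stretch 3 (far end) and -1.11 for stretch 4. Against Ku70-/- cells they gave 6.46 and 4.26 points for insertions, 3.35 and 2.19 for the Jκ region, and -0.86 and -0.77 (log2) for other chromosomes. These alternatives were chosen after seeing the data.

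Leaving out 1 library in turn gave -0.15 to 0.16 points for hybrid joints, 0.065 to 0.35 for 1-bp microhomology, 0.0053 to 0.22 for longer microhomology and -0.13 to -0.041 for the share within 10 bp. Against the coding end bait it gave -2.93 to 0.39 points for V-J efficiency, -0.21 to 0.10 for hybrids, -0.26 to 0.15 for insertions and -0.30 to 0.28 (log2) for other chromosomes. Against Ku70-/- cells it gave -7.09 to -3.77 points for V-J efficiency, -4.78 to -3.68 for hybrids and -0.53 to 0.20 for insertions. Use differed by -0.11 to 0.077 at Igkv12-46, -0.13 to 0.042 at Igkv3-4 and -0.11 to 0.13 at Igkv3-2 (log2). The difference from Ku70-/- cells passed 0.05 for V-J efficiency without L67 library 1 (-7.09; exact permutation p = 0.04), Ku70-/- DMSO library 3 (-5.96; exact permutation p = 0.035) or Ku70-/- L67 library 3 (-6.23; exact permutation p = 0.015), and for hybrids without DMSO library 1 (-4.12; exact permutation p = 0.045) or L67 library 3 (-4.19; exact permutation p = 0.03).

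No paired analysis was possible because the labels carry no replicate numbers. With 3 libraries a group, the permutation test of a single comparison gives no p below 0.1, so keeping its side of the threshold says nothing of stability. Read copies are not independent molecules.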
